A study of Mus musculus with 6 samples.

Results

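Aldehyde dehydrogenases are a family of enzymes that oxidise aldehydes to carboxylic acids. The genes described here are 10 members of the family, Aldh1a1, Aldh1a2, Aldh1a3, Aldh1a7, Aldh1b1, Aldh2, Aldh3a2, Aldh5a1, Aldh7a1 and Aldh9a1, found by symbol among the 21937 genes of the authors' deposited table, and all 10 were present. They were chosen by the fold change and adjusted p of Aldh1a7 in this same comparison, together with relatives named by family, so the values below are descriptions and carry no test beyond the authors' own p-values.

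The study used in utero electroporation, in which a plasmid is injected into the ventricle of the embryonic brain and driven into the progenitors that line it by an electric pulse. Mouse cortical progenitors received at embryonic day 14.5 an shRNA against Nat14 (shNat14, 3 libraries) or a non-targeting control shRNA (NTC, 3 libraries). At embryonic day 18.5 the cortex was dissected and live GFP-positive cells were sorted for RNA sequencing. Both groups were electroporated, dissociated and sorted in the same way, and the labels give neither the strain, nor the number of hairpins used, nor whether each library stands for its own embryo or litter. The p-values therefore cover only the spread among these libraries, and that spread may be technical.

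The authors' deposited table holds 4 values per gene: the log2 fold change (below also log2 ratio, of shNat14 to NTC), the mean level as log2 CPM (read counts scaled to a fixed library total), the p-value and the p-value adjusted over all genes. It holds no value per library, so no SD can be given and the depth of each library is unknown. Fold changes are read as shNat14 over NTC from the sign of the target itself, since the column names give no direction. The log2 scale and the mean over libraries are likewise readings that the column names do not state. In the authors' deposited table Nat14 had a log2 ratio of -3.31 on the log2 scale, which puts shNat14 at 10.05% of NTC, and a mean level of 4.45 log2 CPM. A gene is called where the authors' adjusted p is under 0.05, which held for 34 of 21937 genes, or 0.155%. The lowest mean level in the authors' deposited table, -3.09 log2 CPM, is shared by 4537 genes and was taken as its floor.

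Retinaldehyde dehydrogenases, encoded by Aldh1a1, Aldh1a2 and Aldh1a3, carry out the last step from vitamin A to retinoic acid, which binds nuclear receptors and acts on gene expression in the developing nervous system. In the embryonic forebrain the meninges are a known source of retinoic acid, made there by Aldh1a2. Other members work in mitochondria and the cytosol on aldehydes from alcohol, lipid peroxidation, amino acids, polyamines and the neurotransmitter GABA. Aldh1a7 is a rodent gene that lies beside Aldh1a1 and is a close copy of it, but is not known as a retinaldehyde enzyme.

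How far reads of Aldh1a7 can be told from those of its copy bears on every value of the pair, so a stretch of the coding sequences is shown first. It covers coding bases 732 to 881 of Aldh1a7, counted from the start codon, as annotated in GENCODE M21, and holds the longest run that Aldh1a7 and Aldh1a1 share without a difference, 100 bases from base 757 to base 856. Capitals mark bases that differ from Aldh1a7 in the alignment of each gene with it.
Aldh1a7: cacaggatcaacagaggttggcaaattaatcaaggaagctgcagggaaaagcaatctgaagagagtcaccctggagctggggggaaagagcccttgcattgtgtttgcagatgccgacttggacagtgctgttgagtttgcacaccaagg
Aldh1a1: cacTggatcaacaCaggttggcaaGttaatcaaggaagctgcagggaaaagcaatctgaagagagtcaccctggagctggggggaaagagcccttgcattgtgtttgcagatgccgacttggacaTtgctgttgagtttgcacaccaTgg
Aldh1a2: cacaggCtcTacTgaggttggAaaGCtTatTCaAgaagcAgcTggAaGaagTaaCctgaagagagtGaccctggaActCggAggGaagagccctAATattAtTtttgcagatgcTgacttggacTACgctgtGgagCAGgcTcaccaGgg
Aldh1a3: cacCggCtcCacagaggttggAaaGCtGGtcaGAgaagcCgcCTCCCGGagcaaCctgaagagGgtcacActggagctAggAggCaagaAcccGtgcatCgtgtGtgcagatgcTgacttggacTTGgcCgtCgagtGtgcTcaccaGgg

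Over these 150 bases Aldh1a1 differs from Aldh1a7 at 5 bases, Aldh1a2 at 36 and Aldh1a3 at 37. Over the whole coding sequence of 1503 bases, 91.6% of aligned bases are identical between Aldh1a7 and Aldh1a1. The next closest members are Aldh1a2 with 67.7%, Aldh1a3 with 67.5%, the mitochondrial enzyme Aldh1b1 with 65.2% and Aldh2 with 64.5%. The remaining members, Aldh9a1, Aldh3a2, Aldh5a1 and Aldh7a1, range between 48.4% and 50.4%.

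The share of the Aldh1a7 transcript that a read cannot assign depends on read length, which is not given in the sources used here. Of all stretches of 25 bases in that transcript, 17.7% also occur in an annotated transcript of Aldh1a1, and the share is 7.49% for 50 bases, 2.51% for 75 bases and 0.0508% for 100 bases. At each of these lengths Aldh1a1 was the only other gene of the annotation, on either strand, that held a stretch of Aldh1a7. In the other direction, 6.54% of the stretches of 50 bases in the Aldh1a1 transcript occur in Aldh1a7. Aldh1a7 has no overlapping gene in the annotation, whereas Aldh1a1 is overlapped on the opposite strand by the genes C730002L08Rik and Gm6684, and no source states that counting used strand.

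**Figure D1:**
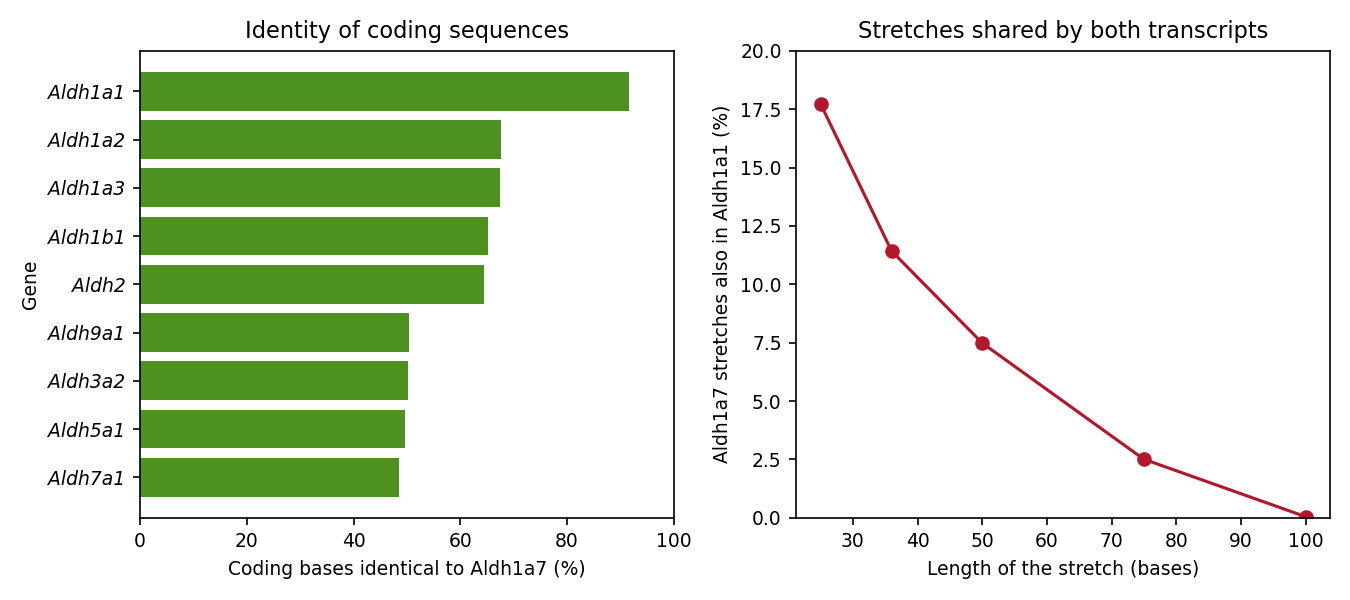
Left, the share of aligned coding bases (percent) that is identical to Aldh1a7 for each of the other 9 members, drawn as bars from 0. Right, the share (percent) of Aldh1a7 transcript stretches that also occur in Aldh1a1, against the length of the stretch in bases; it is 17.7% at 25 bases and 0.0508% at 100 bases.

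The comparison of shNat14 with NTC cells asked which genes differ in level after Nat14 is knocked down. Aldh1a7 was the only member called, and it rose with a log2 ratio of 7.41 in the authors' deposited table (p = 5.39e-12, adjusted p = 2.96e-08). That is 1 of 10 members higher and 0 of 10 lower, where 0.0547% of all genes in the authors' deposited table were called higher and 0.1% lower. Because the members were chosen with this call known, the count is not read against that share. Of all 21937 genes in the authors' deposited table, Aldh1a7 had the 4th smallest p and the 13th largest absolute log2 fold change. These ranks restate the values by which it was chosen. It is among the 10969 genes at or above the median mean level of 1.71 log2 CPM only through its level in shNat14, so no rank within them is given.

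The size of this rise is not well determined. The mean level of Aldh1a7 in the authors' deposited table was 2.70 log2 CPM, or 6.48 CPM. If that value is the log2 of the mean CPM of both groups, the fold change puts Aldh1a7 at 12.9 CPM in shNat14 and 0.0758 CPM in NTC, and if it is the mean of the log2 levels, at 84.5 CPM in shNat14 and 0.497 CPM in NTC. The first NTC value lies below the 0.117 CPM of the lowest level in the authors' deposited table, so the fitted value can depend on the prior count of the fit and is not a bound. Whether all 3 shNat14 libraries held Aldh1a7 or only some of them cannot be read from a table without library values.

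The groups also differed in a gene tied to sex. Xist, the RNA that silences 1 X chromosome in female cells, had a log2 ratio of 5.12 (adjusted p = 0.0112), and Tsix on its opposite strand one of 5.34 (adjusted p = 0.189) in the authors' deposited table. The Y-linked genes Ddx3y, Eif2s3y, Kdm5d and Uty had log2 ratios between -1.28 and -0.85 in the authors' deposited table, none called (p between 0.291 and 0.582). The labels do not give the sex of the embryos, and the part of sex or of single embryos in the rise of Aldh1a7 was not tested.

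Genes at the same mean level are given as a description only, since Aldh1a7 was chosen by its fold change. That mean comes mostly from shNat14, so the genes around it are not matched to its level in NTC. Within 0.5 log2 CPM of Aldh1a7 lie 1461 genes of the authors' deposited table, itself included, and the central 90% of these have a log2 fold change between -0.87 and 1.05. In that range of levels 2 genes were called, Aldh1a7 and Stx3, a syntaxin of membrane fusion with a log2 ratio of 2.22 in the authors' deposited table (adjusted p = 0.00869). The next largest log2 ratios there by absolute size in the authors' deposited table were 2.78 for 1700012B09Rik (adjusted p = 0.368), 2.68 for Cma1, a mast cell chymase (adjusted p = 1), and 2.45 for Fam19a1, a secreted protein of neurons (adjusted p = 0.611). None of these 3 passed the authors' test.

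**Figure D2:**
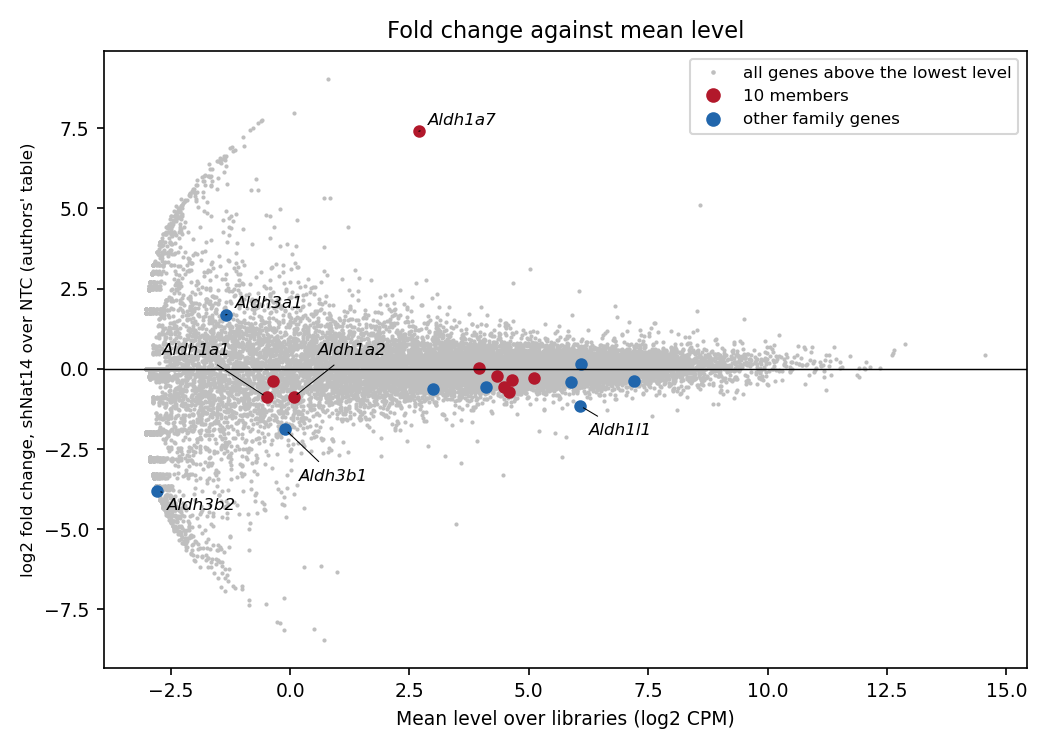
Fold change (log2, shNat14 over NTC) against mean level (log2 CPM) for the 17400 genes above the lowest level in the authors' deposited table, with the 10 members in red and the other family genes in blue. Aldh1a7 stands at 7.41 with a mean level of 2.70 log2 CPM, and the other members lie between -0.88 and 0.03.

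The genes of retinoic acid synthesis did not pass the authors' test, and all 3 had a negative fold change. Aldh1a1, the closest copy of Aldh1a7, had a log2 ratio of -0.88 in the authors' deposited table (p = 0.291, adjusted p = 1) at a mean level of 0.711 CPM. The log2 fold change of Aldh1a7 exceeded that of Aldh1a1 by 8.29, a difference between genes for which no error can be had. Aldh1a2, the main enzyme of retinoic acid synthesis in the early embryo, also had a log2 ratio of -0.88 in the authors' deposited table (p = 0.453), at 1.05 CPM. Aldh1a3, which in the embryonic forebrain is known from the lateral ganglionic eminence and olfactory regions, had a log2 ratio of -0.39 (p = 0.824) and 0.783 CPM in the authors' deposited table.

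At such levels fold changes are scattered widely. For genes within 0.5 log2 CPM of Aldh1a1, the central 90% of log2 fold changes in the authors' deposited table ran from -2.45 to 2.13, and for those near Aldh1a2 from -1.87 to 2.06 and near Aldh1a3 from -2.19 to 2.16. All 3 genes lay inside their range. The meningeal fibroblast list, which holds Aldh1a2 itself, had 8 of 10 genes below 0 in the authors' deposited table. Its median log2 ratio was -0.83, with none called and 3 lower at an unadjusted p under 0.05, against 2.25% of all genes. The sort for GFP after electroporation of ventricular progenitors is a gate that would remove meningeal cells, and the genes of the list had mean levels from -0.12 to 3.66 log2 CPM in the authors' deposited table. The part of these cells in the value of Aldh1a2 was not tested, and in sorted bulk cells fewer cells of a type and less RNA per cell cannot be told apart.

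The remaining members were measured at higher levels, and none passed the authors' test. Aldh2, the mitochondrial enzyme that clears acetaldehyde, had the smallest p of them in the authors' deposited table, 0.101, and had a log2 ratio of -0.71 with a mean level of 24.1 CPM. Aldh1b1, a mitochondrial enzyme related to Aldh2, had a log2 ratio of -0.57 (p = 0.203) and 22.3 CPM in the authors' deposited table. Read as the mean of both groups, the level of Aldh2 in the authors' deposited table corresponds to 18.3 CPM in shNat14 and 30.0 CPM in NTC, and that of Aldh1b1 to 17.9 CPM in shNat14 and 26.6 CPM in NTC.

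Aldh7a1, the enzyme of lysine breakdown whose loss in humans causes pyridoxine-dependent epilepsy, had a log2 ratio of -0.36 in the authors' deposited table (p = 0.278) at a mean level of 4.65 log2 CPM. Aldh3a2, the fatty aldehyde dehydrogenase whose loss in humans causes Sjögren-Larsson syndrome, had a log2 ratio of -0.27 (p = 0.607) and 34.3 CPM in the authors' deposited table. Aldh9a1, which acts on aminoaldehydes of carnitine synthesis and polyamine breakdown, had a log2 ratio of -0.21 (p = 0.538) and 20.2 CPM in the authors' deposited table. Aldh5a1, succinate semialdehyde dehydrogenase of GABA breakdown, had the log2 ratio nearest to 0 of the 10 in the authors' deposited table, 0.03 (p = 0.949) at 15.5 CPM.

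Without Aldh1a7, 8 of the other 9 members had a negative fold change, with a median log2 ratio of -0.39 in the authors' deposited table. Over the 17400 genes above the lowest level, 47.6% were negative and the median log2 ratio was 0.0033. Of the 10 members, 8 lay inside the central 90% of fold changes at their own level. Aldh1a7, chosen by its fold change, lay above that range. Aldh2 lay below it, with a lower edge of -0.57 for its level in the authors' deposited table.

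Levels of different genes were compared per kilobase of annotated exon. Over both groups, Aldh1b1 was the highest member at 9.70 CPM per kilobase in the authors' deposited table, followed by Aldh3a2 at 6.11, Aldh9a1 at 5.96, Aldh7a1 at 4.83 and Aldh2 at 4.71. Aldh5a1 followed with 2.74. The retinaldehyde enzymes lay below these, Aldh1a2 at 0.466, Aldh1a3 at 0.170 and Aldh1a1 at 0.144 CPM per kilobase in the authors' deposited table. Aldh1a7, with 3.14 CPM per kilobase over both groups in the authors' deposited table, has no single place in this order because the groups differ so widely. With the mean level read as the log2 of the mean CPM, it was second to Aldh1b1 in shNat14, at 6.23 CPM per kilobase, and the lowest of the 10 members in NTC, at 0.0367. With the mean of the log2 levels it was the highest in shNat14, at 40.9, and in NTC, at 0.240, it lay above Aldh1a1 and Aldh1a3 but below Aldh1a2. No spread over libraries is known, so neighbours in this order cannot be separated. The order also rests on the length used, which joins all annotated exons of a gene. For Aldh7a1 that is 5181 bases, against 1914 for its transcript with the longest coding part, and for Aldh3a2 5619 against 2892. For Aldh1b1 both lengths are 2298 bases, so another choice of length could change which member is highest.

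Other genes can share reads with some members too. Of the stretches of 50 bases in the Aldh5a1 transcript, 13.7% also occur, on 1 strand or the other, in the overlapping genes 4932702P03Rik and 9330162012Rik. For Aldh2 the share was 2.12%, with the opposite-strand gene Gm42879. Aldh7a1 is overlapped on the opposite strand by Phax, among others, but its transcript with the longest coding part shared no stretch of that length with any other gene. The same was true of such transcripts of Aldh1a2, Aldh1a3, Aldh1b1, Aldh3a2 and Aldh9a1. Exons outside the 1 transcript used for each gene were not searched.

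**Figure D3:**
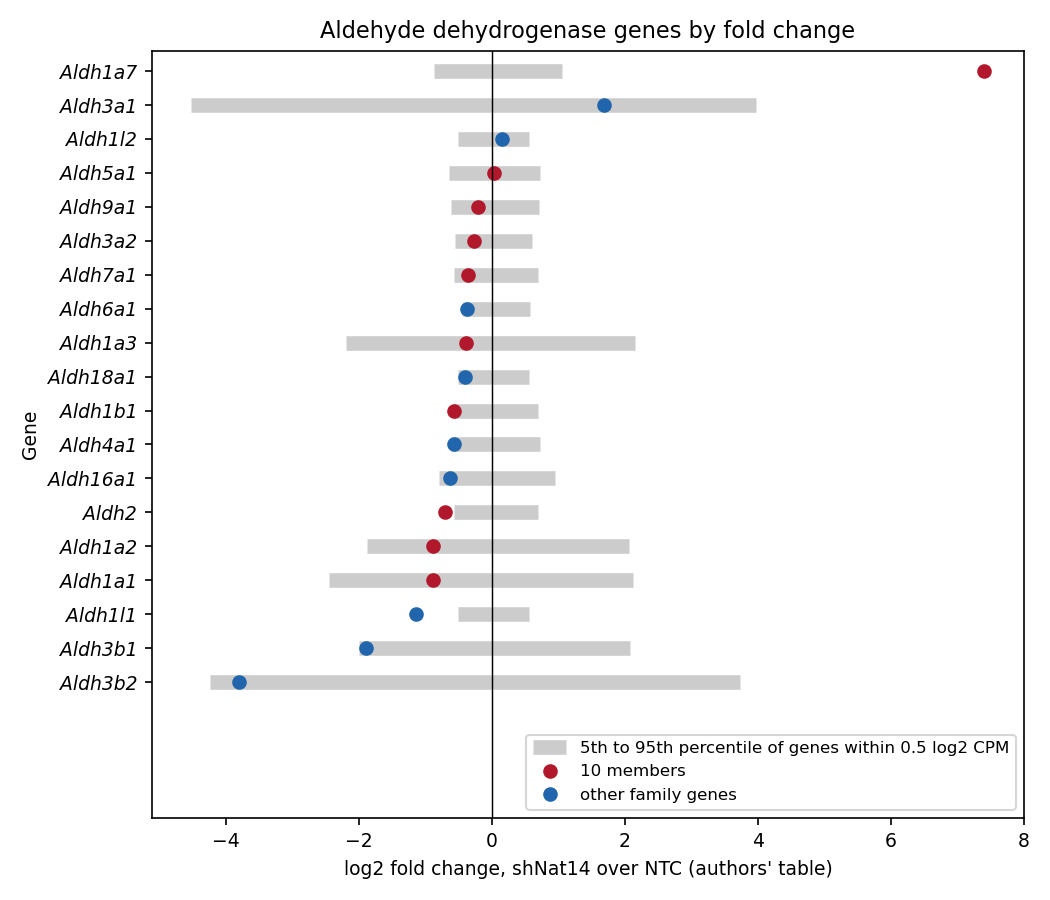
Fold change (log2, shNat14 over NTC, authors' deposited table) of the 19 family genes above the lowest level, members in red and other family genes in blue, with a grey bar for the 5th to 95th percentile of all genes within 0.5 log2 CPM. Aldh1a7 lies far to the right of its bar, and Aldh2 and Aldh1l1 lie to the left of theirs.

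The rest of the family was examined in the same way, as 11 genes of which 10 were in the authors' deposited table, Aldh3b3 was absent and Aldh8a1 sat at the lowest level. Of the 9 genes above that level none was called, 7 had a negative fold change and the median log2 ratio was -0.57 in the authors' deposited table. At an unadjusted p under 0.05, 2 were lower and 0 higher, where 2.25% of all genes in the authors' deposited table were lower and 2.79% higher by that measure. Those shares include the genes at the lowest level. Of the genes above it, 6.35% had such a p in either direction, and 0.155% of all genes were called.

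Aldh1l1, a cytosolic folate enzyme used as an astrocyte marker, and Aldh3b1, an enzyme of lipid aldehydes, were the 2 genes lower by that measure. Aldh1l1 had a log2 ratio of -1.15 in the authors' deposited table (p = 0.00426, adjusted p = 0.435) at 67.0 CPM, below the lower edge of -0.51 for its level. Aldh3b1 had a log2 ratio of -1.89 (p = 0.0238, adjusted p = 0.844) at 0.929 CPM in the authors' deposited table, inside the range for its level. The astrocyte list, which holds Aldh1l1, had 10 of 10 genes below 0 in the authors' deposited table, with a median log2 ratio of -0.89. Of these, 1 was called lower and 5 were lower at an unadjusted p under 0.05, against 0.1% and 2.25% of all genes. The list was chosen with earlier results of these data known, so these counts are not read against those shares. The called gene was Agt, angiotensinogen, with a log2 ratio of -6.33 (adjusted p = 6.99e-06) at a mean of 0.98 log2 CPM in the authors' deposited table. The part of astrocytes in the value of Aldh1l1 was not tested.

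Other genes of this group had log2 ratios nearer to 0, or lay at very low levels. Aldh6a1, of valine breakdown and the most abundant family gene at 25.6 CPM per kilobase, had a log2 ratio of -0.38 in the authors' deposited table (p = 0.146). Aldh4a1 of proline breakdown had a log2 ratio of -0.57 (p = 0.326), Aldh18a1, which makes the precursor of proline, of -0.41 (p = 0.263), and Aldh1l2, the mitochondrial folate enzyme, of 0.16 (p = 0.577) in the authors' deposited table. Aldh16a1 had a log2 ratio of -0.64 in the authors' deposited table (p = 0.363). Aldh3a1, known from the cornea, had a log2 ratio of 1.68 (p = 0.229) and Aldh3b2 of -3.79 (p = 0.286) in the authors' deposited table, both under 0.4 CPM.

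The retinoid pathway around the members was covered by 5 lists with 46 different genes, all found in the authors' deposited table and 39 of them above the lowest level. None of the 39 was called and none had an unadjusted p under 0.05 in the authors' deposited table. Over all genes 0.155% were called, and 6.35% of those above the lowest level had such a p. Counts of 0 among 39 genes therefore say little. The median log2 fold change of the 39 was -0.11, with 15 genes positive, 23 negative and 1 at 0.

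Among the enzymes that turn retinol into retinaldehyde and back, 15 were above the lowest level, 7 with a positive and 8 with a negative log2 ratio, with a median log2 ratio of -0.02 in the authors' deposited table. Rdh10, the main retinol dehydrogenase of the embryo, had a log2 ratio of 0.40 (p = 0.405), and Rdh9 had the smallest p of the list, 0.0628, with a log2 ratio of 1.41 at a mean level of -0.04 log2 CPM in the authors' deposited table. Of the carriers and transporters, 3 were positive and 7 negative, with a median log2 ratio of -0.33 in the authors' deposited table. Transthyretin, Ttr, the carrier of retinol-binding protein and a marker of choroid plexus, had the smallest p there, 0.065, with a log2 ratio of 1.80, and Stra6, the receptor for that protein, had a log2 ratio of -1.20 (p = 0.0678) in the authors' deposited table. The choroid plexus list, which holds Ttr, had 8 of 10 genes positive with a median log2 ratio of 0.91 in the authors' deposited table, none called, and its part in the value of Ttr was not tested.

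Of the enzymes that degrade retinoic acid, Cyp26b1 had a log2 ratio of 0.22 in the authors' deposited table (p = 0.794), Cyp26c1 of 0.00 close to the lowest level, and Cyp26a1 sat at the lowest level. Of the 6 receptors, 5 had a negative fold change and the median log2 ratio was -0.30 in the authors' deposited table. Rxrg had the smallest p of them, 0.214, with a log2 ratio of -0.59, and Rarb, a receptor gene that retinoic acid induces, had a log2 ratio of 0.23 (p = 0.643) in the authors' deposited table. Among 12 known target genes, 9 were above the lowest level, with log2 fold changes between -0.47 and 0.26 and a median log2 ratio of -0.04 in the authors' deposited table. Dhrs3, a retinaldehyde reductase that retinoic acid induces, had the smallest p of these, 0.419, with a log2 ratio of -0.27 at a mean level of 5.14 log2 CPM in the authors' deposited table.

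**Figure D4:**
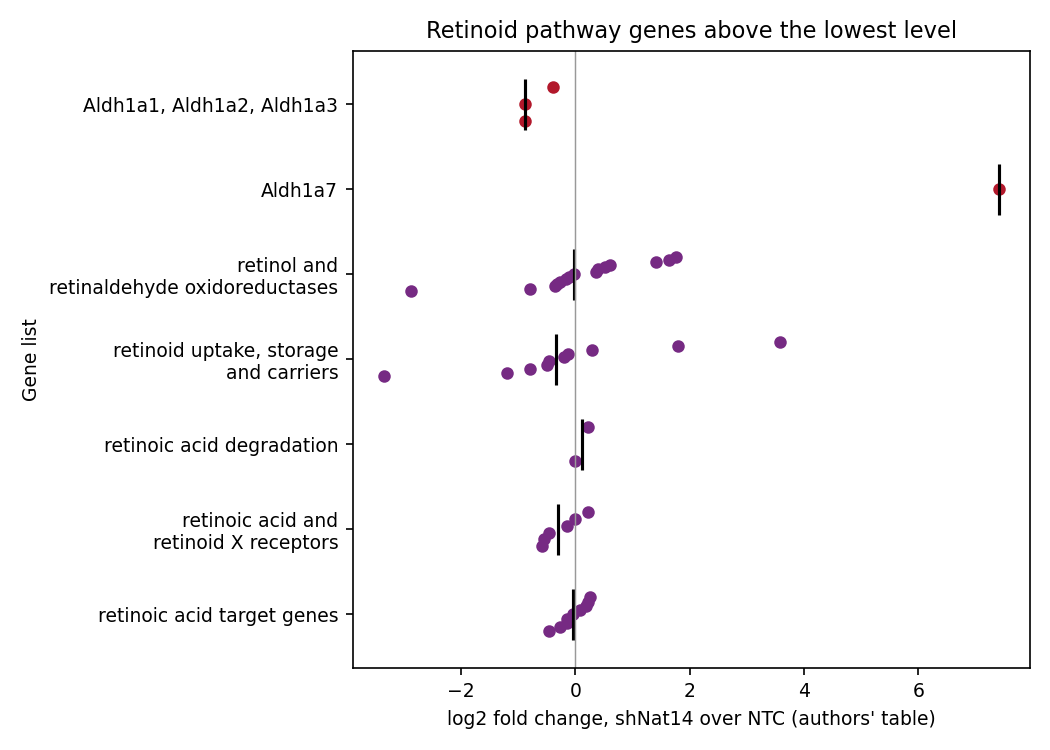
Fold change (log2, shNat14 over NTC, authors' deposited table) of retinoid pathway genes above the lowest level, 1 point per gene, with a vertical line at each list's median. Aldh1a7 stands at 7.41, while the 9 target genes above the lowest level lie between -0.47 and 0.26.

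The genes beside Aldh1a7 on the chromosome were examined by their order in the RefSeq annotation. Of the 5 protein-coding genes on each side, 9 of 10 were in the authors' deposited table, 5 with a positive and 4 with a negative fold change, none called. Over all genes 0.155% were called, so the lack of a call among 9 genes says little. The nearest on 1 side was Aldh1a1 and on the other Tmc1, a channel component of hair cells, which had a log2 ratio of -1.80 in the authors' deposited table (p = 0.451) at a mean of -1.29 log2 CPM. Beyond Aldh1a1, the phospholipid-binding protein Anxa1 had a log2 ratio of -0.25 (p = 0.604), the nuclear receptor Rorb of 0.76 (p = 0.234), the channel Trpm6 of 0.08 (p = 0.951) and D030056L22Rik of 0.57 (p = 0.278) in the authors' deposited table. On the other side Zfand5, a zinc finger protein, had the smallest p of the neighbours, 0.0113, with a log2 ratio of 0.76 at a mean level of 7.38 log2 CPM in the authors' deposited table (adjusted p = 0.687). Gda, guanine deaminase, had a log2 ratio of 0.32 (p = 0.615) and 1110059E24Rik of -0.31 (p = 0.225) in the authors' deposited table.

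**Figure D5:**
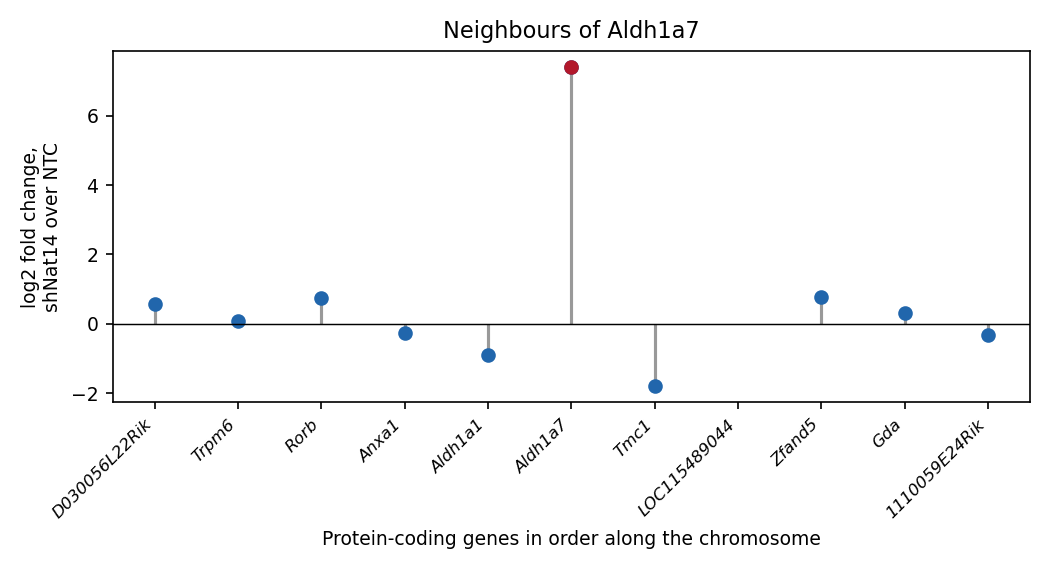
Fold change (log2, shNat14 over NTC, authors' deposited table) of Aldh1a7, in red, and of the 5 protein-coding genes on each side in chromosomal order, not to scale; LOC115489044 is not in the table. Aldh1a7 stands at 7.41, and the 9 neighbours with a value lie between -1.80 and 0.76.

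Defining markers of cortical neurons and progenitors were present in the sorted cells, with Neurod6 at 11.3 and Dcx at 9.82 log2 CPM and the radial glia gene Fabp7 at 11.0 log2 CPM in the authors' deposited table. Neither the excitatory neuron list (median log2 ratio 0.07) nor the radial glia list (median log2 ratio -0.14) held a called gene or an unadjusted p under 0.05 in the authors' deposited table. Microglia genes had a median log2 ratio of -1.23 in the authors' deposited table, with 9 of 10 negative and none called. At an unadjusted p under 0.05, 4 were lower, where 2.25% of all genes were lower and 2.79% higher by that measure. Interneuron genes had a median of -0.60 with 7 of 10 negative and 4 lower by that measure, none called in the authors' deposited table. The 5 erythroid genes above the lowest level had a median of -1.11 with 3 negative and 1 lower, none called. Endothelial genes had a median of 1.43 with 8 of 10 positive and 2 higher by that measure, none called, but only 2 of the 10 reached the median level of all genes, Cldn5 with a log2 ratio of 0.18 and Slc2a1 with -0.17 in the authors' deposited table. The GFP sort is a gate that would remove microglia, endothelial and erythroid cells. Some of their markers were measured all the same, with P2ry12 at 3.27, Cldn5 at 3.20 and Alas2 at 2.85 log2 CPM in the authors' deposited table. Whether any list moves with Aldh1a7 over libraries cannot be read from this table, and the part of these cells in its rise was not tested.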

How the data were processed

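The data used were the authors' own comparison of 3 shNat14 and 3 NTC libraries, a table of 21937 genes. Its columns are headed logFC, logCPM, PValue and FDR. They were read as log2 fold changes, mean log2 CPM levels, p-values and false discovery rates (adjusted p-values), all used as deposited. The headers state neither the base of the logarithm nor that the level is a mean. Benjamini-Hochberg adjustment of the deposited p-values gave the deposited adjusted values to within 4.05e-05. Tools listed without roles in the submitters' processing notes are DESeq, HTSeq 0.5.4p1, SAMtools 0.1.19 and TopHat2 2.0.8, beside the human build hg19; the table holds mouse symbols, so its build is unresolved and no gene coordinates are given. No source used here gives the authors' test, prior count or filters. Without counts per library no depth, interval or detection limit can be given.

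Members and lists were chosen with earlier results of these data known, so counts in the lists are not read against shares of all genes. With 0.155% of all genes called, a list without a call says little. The shares of 2.25% lower and 2.79% higher include the 4537 genes at the lowest level, whereas list counts leave such genes out. Of genes above that level, 6.35% had an unadjusted p under 0.05 in either direction. Genes named outside the members follow a rule: all other family genes, in each pathway list the called members or else the one with the smallest p, the 3 largest changes within 0.5 log2 CPM of Aldh1a7, its 5 neighbours on each side (RefSeq, GRCm38.p6) and Nat14. Stx3, Agt, the sex-linked genes, Rdh10, Stra6, Gad1, Abat, Rarb, Cyp26c1, Cyp26a1 and the markers named singly were added after their values were seen. Of 96 pathway entries beside the members, 2 matched by an older symbol (Bco1 and Akr1a1) and 1 not at all. Fold changes under 1e-06 in size were set to 0. In 25 rows a symbol had become a calendar date; these stayed in all counts.

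Coding sequences and transcripts came from GENCODE M21, each gene by its transcript with the longest coding part, aligned globally with Biopython 1.88. A protein comparison had been planned, but coding sequences were used. Adjustment and level calculations were tested on simulated data. Python 3.11.15, numpy 2.4.6, pandas 2.3.3 and scipy 1.17.1 were used. Alternatives were other thresholds, adjustments, level filters and a re-centring.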

Additional observations from a re-analysis of the deposited data

How the results depend on the processing

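Calls were also made at adjusted p under 0.01 or 0.10, with Bonferroni correction, and with a minimum log2 fold change of 1. Adjustment over genes above the lowest level, or from the median level up, completed the 6 alternatives. Aldh1a7 was the only member called under each. That outcome was fixed in advance, since Aldh1a7 was chosen by its adjusted p and no other member had a p under 0.101 (Aldh2). The adjusted p of Aldh1a7 ranged from 1.48e-08 to 1.18e-07. Calls in the whole table, 34 as deposited, were 19 at adjusted p under 0.01, 55 at 0.10, 43 with adjustment over genes above the lowest level, 17 with Bonferroni correction and 16 with adjustment restricted to the upper level range. Re-centring the fold changes by 0.0323, which leaves the p-values as they are, turned the sign of no member but Aldh5a1, which moved to -0.0040. Of 9 pathway list medians recomputed at or above the median level, 7 moved by less than 0.1; those of the retinol and retinaldehyde enzymes moved to 0.17 and of the carriers to -0.13, with fewer genes left. Of the 9 marker list medians, treated likewise after the data were seen, 4 moved by less than 0.1; the others moved to 0.0019 for endothelium (2 genes), -0.67 for astrocytes, 1.16 for choroid plexus, -0.03 for excitatory neurons and -1.36 for erythroid cells (1 gene). Under a stricter gap penalty the coding identity with Aldh1a7 fell to 46.0% for Aldh3a2 and 46.5% for Aldh7a1. Leaving out libraries was not run. No paired analysis was possible because single libraries have no columns.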

Other observations

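Genes that feed aldehydes to these enzymes, or clear them by other routes, held no called gene in 3 further lists. Over all genes 0.155% were called, so the lack of a call in lists this short says little. In the list of GABA synthesis and the GABA shunt, the route that ends at Aldh5a1, 6 of 8 genes had a negative fold change. The list had a median log2 ratio of -0.31 in the authors' deposited table. At an unadjusted p under 0.05, 2 were lower, against 2.25% of all genes. The GABA transporter Slc6a11 had a log2 ratio of -1.40 (p = 0.00686, adjusted p = 0.557), the GABA-synthesising enzyme Gad1 of -0.67 (p = 0.0304) and the transaminase Abat, which makes the substrate of Aldh5a1, of -0.72 (p = 0.0623) in the authors' deposited table. Aldh5a1 itself had a log2 ratio of 0.03. Gad1 is also in the interneuron list, of which 7 of 10 genes were negative.

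Among routes from lysine, proline, polyamines, carnitine and sphingolipids, 15 of 16 genes were above the lowest level, with a median log2 ratio of -0.03 and 9 negative in the authors' deposited table. Aass, the enzyme that starts the lysine route ending at Aldh7a1, had the smallest p there, 0.0443, with a log2 ratio of -1.82 at a mean level of 1.65 log2 CPM in the authors' deposited table (adjusted p = 0.985). Among other aldehyde reductases and oxidases, 8 of 10 genes were negative, 1 positive and 1 at 0, with a median log2 ratio of -0.52 in the authors' deposited table. Akr1b8, an aldo-keto reductase, had the smallest p of that list, 0.0194, with a log2 ratio of -2.86 at the low mean level of -0.72 log2 CPM in the authors' deposited table (adjusted p = 0.808).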
